A study of Mus musculus with 3 samples.

Results

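The Zbtb genes encode transcription factors with a BTB domain, a protein-interaction module at the amino end, and C2H2 zinc fingers that bind DNA. They were followed in RNA sequencing of pro-B cells of the mouse with and without Pax5, the factor that commits these early antibody-lineage precursors to become B cells. Members were taken by name, as every gene whose mouse symbol, found from its Entrez number, starts with Zbtb and a digit. This gave 42 of the 27179 genes counted. Of these, 40 carry the name of a BTB zinc finger gene and 2 are named for lying on the opposite strand: Zbtb8os, which encodes a cofactor of tRNA ligation (archease), and Zbtb11os1, a long non-coding RNA.

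There were 2 Pax5-/- samples (mutant samples from here on) from male mice and 1 wild-type sample from a female, all C57BL/6 bone marrow B220+ cells (B220 marks the B lineage) expanded on OP9, a mouse stromal feeder line. For both mutant samples the labels state that the IgM- fraction was taken by immunomagnetic depletion at day 7, and for the wild type they give neither. The labels call the mutant samples independently prepared, do not say whether they are separate mice, and do not describe the allele's deletion. Sex, stated depletion and genotype moved together, so their parts in any difference cannot be told apart, and the wild type has no replicate of its own.

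Family members act mostly as repressors. Through the BTB domain they dimerise and recruit corepressors such as NCoR and BCOR with histone deacetylases, or bind the ubiquitin ligase scaffold CUL3. In lymphocytes the family is known for lineage decisions: PLZF (Zbtb16) for innate-like T and innate lymphoid cells, ThPOK (Zbtb7b) for helper T cells, LRF (Zbtb7a) for restraining Notch in B-cell precursors and Miz-1 (Zbtb17) for interleukin-7 signalling.

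The libraries held 6487846 to 6697879 counts, with 14134 to 14420 genes above 0. Levels are given as CPM, the usual count unit relative to library size, after TMM scaling of the libraries, and a count of 0 allows up to 3 counts, or 0.440 to 0.467 CPM. Limits and intervals of this kind cover counting error only. Pax5 itself was at 417, 551 and 1601 counts (mutant samples 1 and 2, then wild type), lower in both mutants (log2 fold change -1.78, SE 0.19; adjusted p = 0.0107). Of 9 alternative settings, only a preset biological variation (coefficient 0.4) removed the Pax5 call. All 13 pro-B marker genes chosen to check the label had counts in every sample, 5 being called higher and 6 lower in the mutants. In bulk RNA, fewer cells of a type and less RNA per cell cannot be told apart.

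Upstream sequences are shown for the 4 changed members with the largest fold changes that have a promoter entry, to let their base composition be compared. They are from RefSeq (GRCm38.p6, the assembly that mm10 names), which held entries for 37 of the 42 members; Zbtb10, Zbtb16, Zbtb40, Zbtb48 and Zbtb7c had none. Each run is the 250 bases before the furthest upstream of the starts listed there, which for Zbtb7b lies inside the gene's annotated span, 5′ to 3′ on the gene's strand, and capitals mark matches to the E-box CANNTG, the core motif of basic helix-loop-helix factors. The windows are chr11:69765662-69765911 on the plus strand for Zbtb4, chr9:96731676-96731925 on the minus strand for Zbtb38, chr3:89393379-89393628 on the minus strand for Zbtb7b and chr1:177442101-177442350 on the plus strand for Zbtb18.
Zbtb4: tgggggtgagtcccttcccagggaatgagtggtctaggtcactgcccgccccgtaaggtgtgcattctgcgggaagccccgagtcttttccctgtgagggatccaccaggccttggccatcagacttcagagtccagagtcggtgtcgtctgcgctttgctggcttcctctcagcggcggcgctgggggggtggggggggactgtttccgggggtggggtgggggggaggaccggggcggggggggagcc
Zbtb38: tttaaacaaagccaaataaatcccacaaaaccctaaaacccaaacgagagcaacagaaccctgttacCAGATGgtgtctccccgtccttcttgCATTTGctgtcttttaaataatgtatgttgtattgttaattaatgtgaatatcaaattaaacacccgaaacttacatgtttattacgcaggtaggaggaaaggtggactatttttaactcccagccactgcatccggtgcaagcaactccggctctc
Zbtb7b: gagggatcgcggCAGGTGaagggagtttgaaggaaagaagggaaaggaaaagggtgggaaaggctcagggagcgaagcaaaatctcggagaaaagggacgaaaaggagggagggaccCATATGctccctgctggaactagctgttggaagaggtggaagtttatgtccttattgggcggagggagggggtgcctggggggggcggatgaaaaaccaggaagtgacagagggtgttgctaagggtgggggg
Zbtb18: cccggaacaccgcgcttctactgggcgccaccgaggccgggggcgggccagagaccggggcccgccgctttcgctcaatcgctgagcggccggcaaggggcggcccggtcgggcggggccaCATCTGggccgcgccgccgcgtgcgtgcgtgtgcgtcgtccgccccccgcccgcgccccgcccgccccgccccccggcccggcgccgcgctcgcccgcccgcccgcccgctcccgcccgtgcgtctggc

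Most members were expressed, and most did not pass the test. Per kilobase of gene length, the scale on which levels of different genes are compared here, Zbtb18 (28.7 CPM), Zbtb7a (27.4 CPM), Zbtb22 (22.8 CPM) and Zbtb1 (18.3 CPM) stood highest in the wild type. In the mutants the order began with Zbtb1 (24.3 CPM), Zbtb7a (22.8 CPM) and Zbtb12 (22.5 CPM). With 1 wild-type sample, no spread stands behind the wild-type order. Summed over all 42 members, the family's level was 1169 and 1321 CPM in the mutants, and the wild type lay between them at 1262 CPM. Of the 42 members, 38 passed the filter on low counts and were tested.

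**Figure D1:**
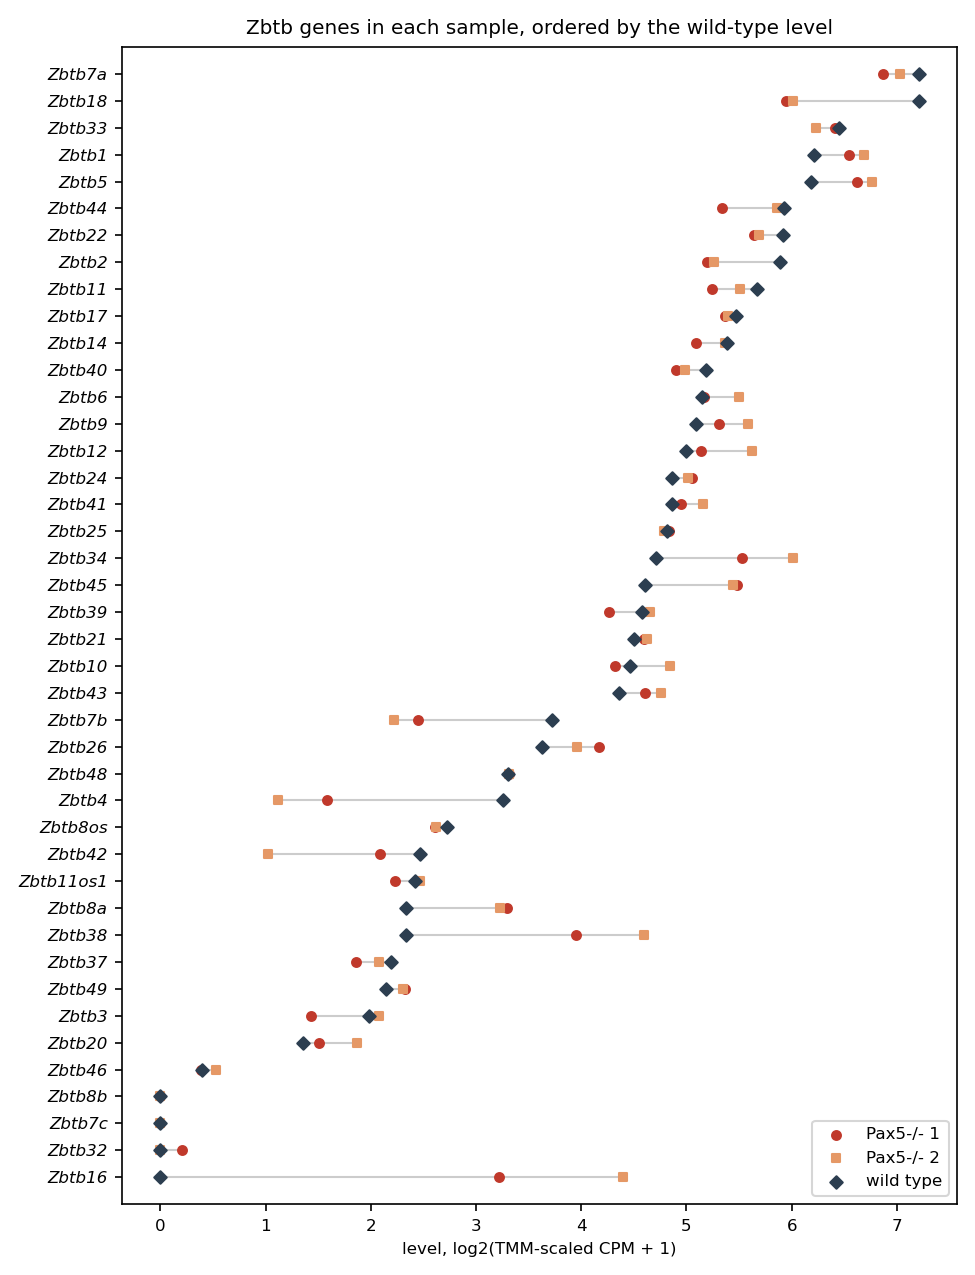
Level of each of the 42 members in each sample, as log2(CPM + 1), ordered by the wild-type value, which is not corrected for gene length; grey lines join the lowest and the highest of the 3 samples. For most members the 3 points lie close together, whereas Zbtb16, Zbtb38, Zbtb4, Zbtb7b and Zbtb18 show a wild-type point well apart from both Pax5-/- points.

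Of the 38 tested members, 7 were called different (18.4%), 3 of them higher and 4 lower in the mutants, at an adjusted p under 0.05 over all genes (quasi-likelihood F test of edgeR). Of all 11783 genes tested, 18.1% were called, 9.53% higher and 8.55% lower, so the share of called members lay near that of all genes. The median log2 fold change (Pax5-/- over wild type) was 0.0043 over the tested members and 0.0074 over all tested genes. Its median size was 0.29 over the members and 0.41 over all genes, and 26 members (68.4%) against 56.9% of all genes had a size under 0.5. Zbtb16 passed the filter only through the mutant samples, where it was high. The other 37 passed in both groups, and of these 6 were called, 2 higher and 4 lower.

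**Figure D2:**
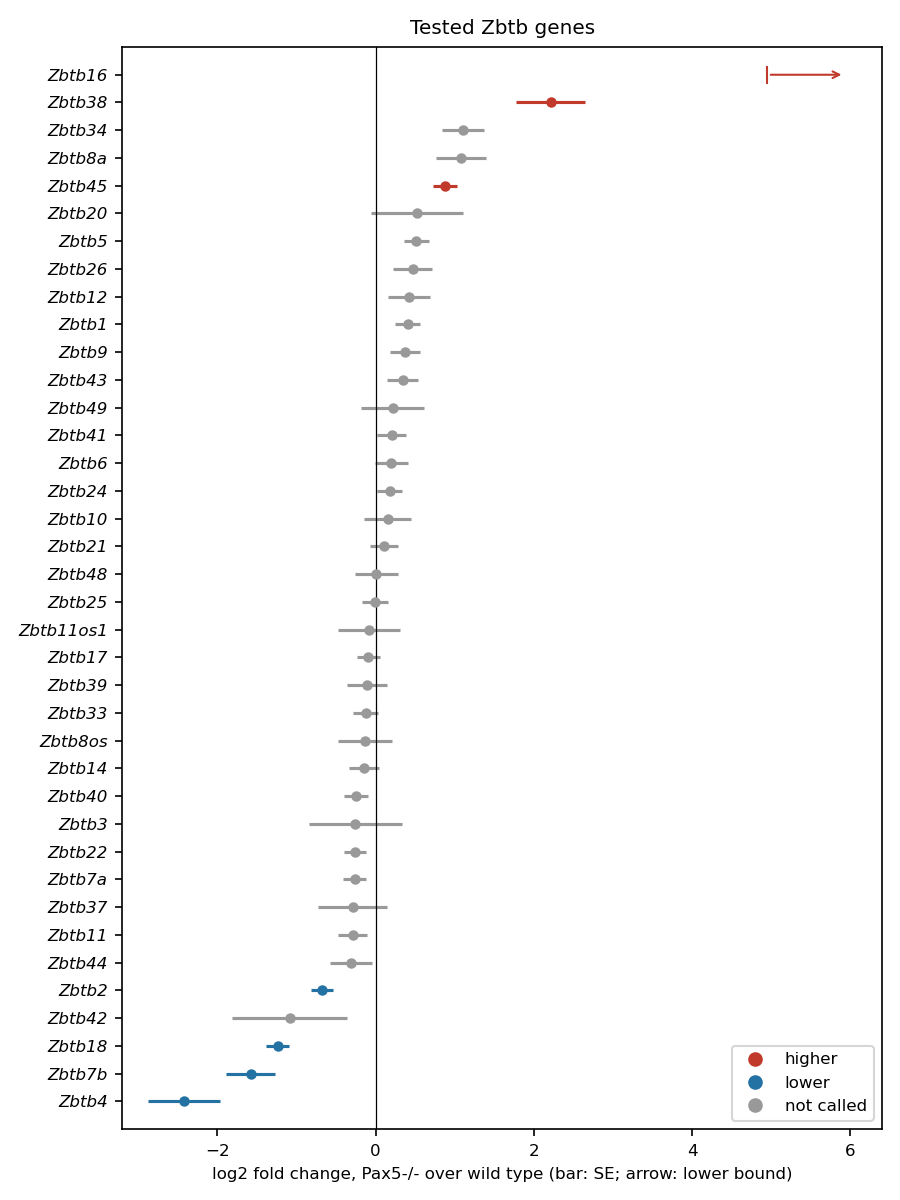
Fitted log2 fold change of the 38 tested members, Pax5-/- over wild type, with SE bars; the arrow for Zbtb16, which had no wild-type counts, starts at its lower bound. The 3 members called higher and the 4 called lower lie at the ends, with Zbtb34, Zbtb8a and Zbtb42 among them but not called.

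Among the 8 members with a known role in lymphoid and immune development, Zbtb16 rose, Zbtb7b fell, 4 were not called and 2 were below the filter. Zbtb16 (Entrez 235320; chromosome 9, 48651797 to 48836225, mm10) encodes PLZF. Mutant samples 1 and 2 had 54 and 137 counts (8.32 and 20.1 CPM), and the wild type had 0. Both mutant samples lay above the wild type, and sample 2 was 2.41 times sample 1. Against 3 wild-type counts, the floor for a count of 0, the level was at least 30.7-fold higher over both samples, at least 17.8-fold in sample 1 and at least 43.0-fold in sample 2. The adjusted p was 0.0326, and 0.0124 when no filter on low counts was applied. Per kilobase, Zbtb16 reached 2.78 CPM in the mutants, which placed it at rank 31 of 42.

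The summed level of innate lymphoid markers was also higher in the mutant samples. The 10 genes summed to 39.0 and 43.6 CPM in the mutants and 5.14 CPM in the wild type, mostly Nkg7 (115, 209 and 5 counts) and Klrd1 (75, 64 and 7 counts). All 4 of the genes that passed the filter did so only through the mutants, so their calls are not used. The defining factors Eomes, Tbx21 and the receptor Ncr1 had at most 1 count in any sample, and Prf1 had 1, 0 and 8. The 8 T-cell markers summed to 18.7 and 22.7 CPM against 15.3 CPM. Nearly all of this was Lat, since Cd3e, Cd3d, Cd3g and Bcl11b had at most 2 counts in any sample. The part of such cells in the level of Zbtb16 was not tested.

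Zbtb7b (Entrez 22724; chromosome 3, 89377644 to 89393673), which encodes ThPOK, had 29 and 25 mutant counts against 78 in the wild type. Its level was 4.47 and 3.67 CPM, or 4.07 ± 0.57 CPM (SD, n = 2), against 12.2 CPM. It fell (log2 fold change -1.58, SE 0.31; adjusted p = 0.0408), with both mutant samples below the wild type. Of its exonic bases, 2.1% are shared with Gm15417 on the opposite strand.

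The other lymphocyte regulators of the family had smaller fold changes and were not called. Zbtb7a (LRF) stood at 116 and 129 CPM in the mutants against 147.1 CPM. Its log2 fold change was -0.26 (95% interval -0.67 to 0.14). Zbtb17 (Miz-1), at 40.2 and 41.1 CPM against 43.3 CPM, had a log2 fold change of -0.09 (95% interval -0.48 to 0.29). For both of these factors the interval lay within a fold of 2 either way, that is within -1 to 1 on the log2 scale. The intervals rest on the spread between the 2 mutant samples, so a larger change is not excluded. Zbtb1, required for lymphocyte development, was at 92.0 and 102 CPM against 73.1 CPM, both mutant samples above the wild type (log2 fold change 0.41, 95% interval -0.03 to 0.84, adjusted p = 0.155). Per kilobase it moved from rank 4 in the wild type to rank 1.

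Members known from later or other blood cells had low counts. Zbtb20, which acts in plasma cells, had 12 and 18 mutant counts against 10 and was not called (log2 fold change 0.53, SE 0.58). Zbtb46, a marker of conventional dendritic cells, had 2, 3 and 2 counts. Zbtb32, induced in activated lymphocytes and plasma cells, had 1, 0 and 0. No difference in Zbtb46 or Zbtb32 was detectable at this depth.

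Of the 3 members of the Kaiso group, which bind methylated DNA, Zbtb4 fell, Zbtb38 rose and Zbtb33 was not called. Zbtb4 (Entrez 75580; chromosome 11, 69765912 to 69784026) had 13 and 8 mutant counts against 55 in the wild type. This was 2.00 and 1.17 CPM, or 1.59 ± 0.59 CPM (SD, n = 2), against 8.57 CPM, and the decrease was significant (log2 fold change -2.42, SE 0.45; adjusted p = 0.0366). Zbtb38 (Entrez 245007; chromosome 9, 96682767 to 96731675) had 94 and 158 counts against 26. At 14.5 and 23.2 CPM, or 18.8 ± 6.15 CPM (SD, n = 2), against 4.05 CPM, it rose (log2 fold change 2.21, SE 0.43; adjusted p = 0.0407).

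Both mutant samples lay below the wild type in Zbtb4 and above it in Zbtb38. Most of the 38 tested members had both on 1 side, so this adds no support to the calls. Per kilobase, these genes lay next to each other in the wild type, at 1.10 CPM (rank 34) and 0.99 CPM (rank 35), and in the mutants at 0.203 CPM (rank 38) and 4.60 CPM (rank 21). Zbtb33, which encodes Kaiso itself and lies on the X chromosome, was at 83.9 and 73.9 CPM in the male mutant samples and 86.2 CPM in the female wild type. Its log2 fold change was -0.13 (95% interval -0.57 to 0.32).

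Of the 4 members linked to telomeres or DNA methylation, 0 were called by edgeR, DESeq2 or limma-voom. By edgeR 0 had an unadjusted p under 0.05. With 18.1% of all genes called by edgeR, 0 of so few members is a description only. Zbtb24, mutated in an immunodeficiency with DNA hypomethylation at centromeres, stood at 32.2 and 31.3 CPM against 28.0 CPM (log2 fold change 0.18, 95% interval -0.25 to 0.60). Zbtb48, the telomere-binding protein TZAP, stood at 8.94 and 8.95 CPM against 8.88 CPM (95% interval of the log2 fold change -0.72 to 0.74). Zbtb40, at 28.8 and 30.7 CPM against 35.4 CPM, had a log2 fold change of -0.25. Zbtb10, with 123 and 189 counts against 135, had its mutant samples on opposite sides of the wild type.

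Of the 25 remaining zinc finger members, 1 rose, 2 fell, 20 were not called and 2 were below the filter. The largest fall in CPM in the whole family was that of Zbtb18 (Entrez 30928; chromosome 1, 177442351 to 177450764), which encodes RP58, a repressor known from cortical neurons. It had 393 and 434 mutant counts against 941 in the wild type. The level was 60.6 and 63.7 CPM, or 62.1 ± 2.18 CPM (SD, n = 2), against 146.6 CPM, and the decrease was significant (log2 fold change -1.24, SE 0.14; adjusted p = 0.0129). Per kilobase it moved from rank 1 in the wild type to rank 10 (12.2 CPM). Zbtb42, a relative of RP58 known from muscle, had 21, 7 and 29 counts and was not called, and its log2 fold change moved with the sample used, from -1.09 over both to -0.48 without sample 2 and -2.12 without sample 1.

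Zbtb2 (Entrez 381990; chromosome 10, 4367074 to 4388108), described as a repressor in the p53 pathway, had 231 and 255 counts against 375. It stood at 35.6 and 37.4 CPM, or 36.5 ± 1.27 CPM (SD, n = 2), against 58.4 CPM, and fell (log2 fold change -0.68, SE 0.14; adjusted p = 0.0449). Zbtb45 (Entrez 232879; chromosome 7, 13005666 to 13010047) moved the other way, with 283 and 289 counts against 150. At 43.6 and 42.4 CPM, or 43.0 ± 0.87 CPM (SD, n = 2), against 23.4 CPM, it rose (log2 fold change 0.88, SE 0.15; adjusted p = 0.0310). In both genes the mutant samples lay close together.

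**Figure D3:**
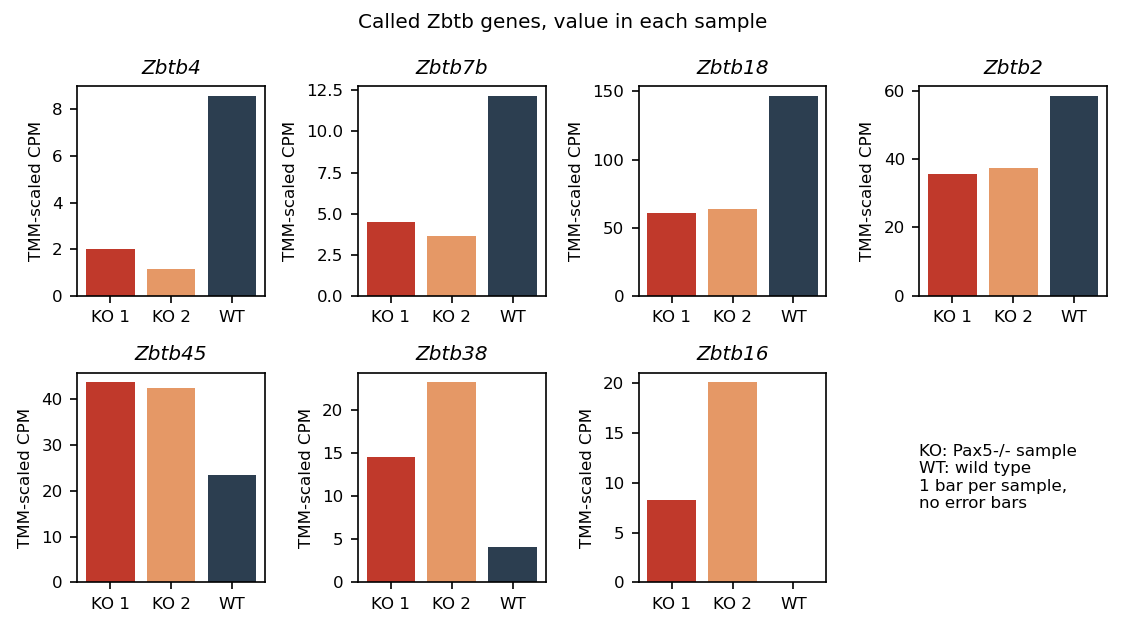
CPM of the 7 called members in each sample, 1 bar per sample with axes starting at 0 and a separate scale for each gene; KO stands for Pax5-/-. In each panel both Pax5-/- bars lie on the same side of the wild-type bar, with no bar for the wild type in Zbtb16.

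The calls differed in how far they depended on the test. Of 9 alternative settings, Zbtb18, Zbtb4 and Zbtb16 were called under 8, Zbtb45 under 7, Zbtb7b and Zbtb38 under 6, and Zbtb2 under 4. Zbtb4 was lost with DESeq2, Zbtb16 with limma-voom and Zbtb18 with the preset biological variation. That preset also removed Zbtb45, Zbtb7b, Zbtb38 and Zbtb2. DESeq2 further removed Zbtb45, Zbtb7b and Zbtb2, limma-voom removed Zbtb38 and Zbtb2, scaling by library size alone removed Zbtb7b, Zbtb38 and Zbtb2, and the likelihood ratio test removed Zbtb2. P-values here measure only the spread between the mutant samples, which may be technical.

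Of the 31 members tested and not called, 3 had an unadjusted p under 0.05. Zbtb34, a little studied member, was at 45.0 and 63.4 CPM in the mutants against 25.2 CPM (log2 fold change 1.10, SE 0.27, adjusted p = 0.0632). It passed the threshold under 5 of the 9 alternatives. Zbtb8a was at 8.79 and 8.36 CPM against 4.05 CPM (log2 fold change 1.08, adjusted p = 0.0941), and Zbtb5 at 97.3 and 107 CPM against 71.5 CPM (log2 fold change 0.52, adjusted p = 0.0998). In all 3 both mutant samples lay above the wild type.

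For 19 of the 31, the 95% interval of the log2 fold change lay within -1 to 1, and for 12 it reached beyond. The intervals rest on the spread between the 2 mutant samples and hold none of the wild type's own. A fold of 2 is therefore not excluded for the 19 either. Of the 38 tested members, 5 had mutant samples on opposite sides of the wild type, namely Zbtb10, Zbtb25, Zbtb39, Zbtb3 and Zbtb11os1. Both mutant samples lay above the wild type in 18 members and below it in 15. The same counts were not made over all genes tested, so they are a description only. With so few samples, both mutants can lie on the same side of the wild type without any difference. Lying on the same side therefore adds no support to any call. Zbtb8b and Zbtb7c had no counts in any sample. The opposite-strand genes Zbtb8os (33, 35 and 36 counts) and Zbtb11os1 (24, 31 and 28 counts) were not called.

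Within 100 kilobases of each other lie 6 pairs of neighbouring members. The edgeR quasi-likelihood test called 0 of their genes, against 18.1% of all genes tested, and Zbtb8b was not tested. With so few genes, this is a description only. Zbtb34 and Zbtb8a were at an unadjusted p under 0.05 by edgeR, and DESeq2 called Zbtb34. Zbtb25 and Zbtb1 overlap at their starts on chromosome 12, with log2 fold changes of -0.0019 and 0.41. Zbtb34 and Zbtb43 on chromosome 2 had 1.10 and 0.34, and Zbtb6 and Zbtb26 on the same chromosome 0.20 and 0.47. Zbtb8os and Zbtb8a on chromosome 4 had -0.13 and 1.08. Zbtb5 lies 281 kilobases from Pax5 on chromosome 4, in RefSeq coordinates.

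Counts of overlapping genes cannot be separated without a stated strand setting. By GENCODE M21 (GRCm38), 19 members share exonic bases with another gene and 23 do not. The largest share was that of Zbtb9, 84.4% of whose exonic bases are also exonic in Ggnbp1 on the same strand, which makes its value (38.7 and 47.0 CPM against 33.0 CPM) uncertain. Zbtb11os1 shares 36.2% with Zbtb11. Among called members, Zbtb16, Zbtb38, Zbtb45, Zbtb2 and Zbtb4 share none and Zbtb18 shares 0.9%.

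The upstream windows of the family were rich in CpG. The 37 members with an entry had a median of 20 CpG in 250 bases and 64.8% G and C, against 6 CpG and 52% over 27025 genes with an entry. Among members the count ran from 0 to 47. Of the windows printed above, Zbtb18 has 47 CpG, the most of any member, Zbtb4 has 13, Zbtb7b has 7 and Zbtb38 has 6. All of these but Zbtb18 lie below the median of the members. RefSeq lists 5 starts for Zbtb18, 3 for Zbtb38 and 2 for Zbtb7b, and gene counts do not say which start was used.

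Motifs were searched on both strands of these windows. GCGTGAC, the core of a Pax5 recognition sequence, matched in 1 of 37 members (Zbtb25, 2.7%) and in 1.89% of all windows, and in 0 of the 6 called members with an entry. CCCNNGGG, the core that Ebf1 binds, matched in 4 members (10.8%) and in 11.6% of all windows, again in 0 of the called ones. The E-box CANNTG matched in 17 members (45.9%) and in 66.1% of all windows, among them Zbtb18, Zbtb2, Zbtb7b and Zbtb38. ACATCTG, the site of RP58 itself, which contains an E-box, matched in Zbtb18 and Zbtb46 and in 3.81% of all windows. TCCTGCNA, the Kaiso site, matched in 1 member, Zbtb37, and in 4% of all windows. A match is a description of these letters only.

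Among the corepressor and CUL3 genes listed as partners of the family, the share called was near that of all genes. Of 22 corepressor and CUL3 genes tested, 1 rose, 2 fell and 19 were not called (13.6% called, against 18.1% of all genes), and the median log2 fold change was 0.09. Ctbp2, a corepressor, had 245 and 236 mutant counts against 15 in the wild type, or 37.8 and 34.6 CPM against 2.34 CPM, and rose (log2 fold change 3.94, SE 0.25; adjusted p = 0.00449). Hdac5 and Hdac7, which encode class IIa histone deacetylases, fell by 1.07 and 0.80 on the log2 scale (SE 0.16 and 0.11), the call of Hdac7 being lost with the likelihood ratio test. Hdac4, of the same class, had 60 and 70 counts against 39 and was not called (log2 fold change 0.68). The 19 not called, among them Ncor1, Bcor, Hdac3 and Cul3, ranged from -0.35 to 0.68. Of 8 BTB zinc finger genes with other names, 6 were tested and 0 were called by edgeR, DESeq2 or limma-voom. By edgeR 2 had an unadjusted p under 0.05. Beside the 18.1% of all genes called, 0 of so few genes is a description only. Bcl6, the germinal centre repressor, had 88 and 97 mutant counts against 84.

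Of 17 genes linked to PLZF in innate lymphocytes, 10 were tested and 7 were below the filter. Of the 10 tested, 5 passed the filter only through the mutants, where they were high: Il18rap, Itgb7, Icos, Gata3 and Klrb1c. Their calls are therefore not set against all genes. Of the 5 that passed in both groups, 4 rose and 0 fell, while 9.53% of all genes tested were called higher. The list was chosen with earlier results of these data known, so this count is a description only. Il18rap, a chain of the interleukin-18 receptor, had 172 and 184 counts against 2, a ratio of 85.9 (95% Clopper-Pearson counting interval 23.6 to 712). The log2 fold change was 2.47 (SE 0.51) for Itgb7, an integrin chain of gut homing, 2.39 (SE 0.46) for Nfil3, a factor of innate lymphoid development, and 2.30 (SE 0.48) for Id2, an inhibitor of E proteins. The edgeR quasi-likelihood test called 6 of the list, Il18rap and Itgb7 among them, and left 4 not called. Limma-voom called 3 of the list, without Itgb7, Nfil3 and Id2, DESeq2 called 5 and scaling by library size alone 4. Sh2d1a had 0 counts in all samples.

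Genes connected to the other lymphoid members were mixed. Of 12 tested Miz-1 partners and targets, 2 rose and 10 were not called (16.7% called, against 18.1% of all genes). Their median log2 fold change was -0.10. Il7r rose (log2 fold change 0.92, SE 0.13). So did the survival gene Bcl2, at 59.8 and 130 CPM against 6.39 CPM (log2 fold change 3.89, SE 0.64). Myc, the partner of Miz-1, had 1982, 2382 and 2068 counts. The Bcl2 call was lost with limma-voom and with robust estimation. LRF is known to restrain Notch signalling. Of 9 tested genes in or linked to that pathway, Notch1, Il2ra and Notch2 rose by 3.16, 1.80 and 1.79 on the log2 scale. Dtx1 fell by 4.92 and 5 were not called. Of the 8 that passed the filter in both groups, 3 rose and 0 fell, while 9.53% of all genes tested were called higher. The Miz-1 and Notch lists were chosen with earlier results of these data known, so these counts are descriptions only. Dtx1, a Notch target with 3 and 5 counts against 120, passed the filter only through the wild type, where it was high, and was removed by the alternative filter of 1 CPM in 2 samples.

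Beside the methyl-DNA binding members, 2 of 6 methyl-CpG binding genes fell and 0 rose (33.3% lower, against 8.55% of all genes; median log2 fold change -0.24). Mbd2, a reader of methylated CpG, stood at 130 and 121 CPM against 244 CPM and fell by 0.96 on the log2 scale (SE 0.13). Uhrf2 fell by 0.81 (SE 0.15), a call lost with the likelihood ratio test and with library size alone. Of 9 genes around ZBTB24 and the upkeep of DNA methylation, 2 rose and 7 were not called (22.2% higher, against 9.53% of all genes; median log2 fold change 0.06). The de novo methyltransferase gene Dnmt3b, at 122 and 150 CPM against 29.4 CPM, rose by 2.21 on the log2 scale (SE 0.21), and Cdca7, a known target of ZBTB24, by 0.90 (SE 0.12). Zbtb24 itself was not called, as above. Both of these lists were chosen with earlier results of these data known, so their shares are descriptions only. Of 10 telomere genes, 0 were called by edgeR, DESeq2 or limma-voom and 1 had an unadjusted p under 0.05 by edgeR. Over all genes edgeR called 18.1%, and for so few genes the count is a description only. Log2 fold changes of the telomere genes ran from -0.58 to 0.33 (median -0.15). Of the 17 called genes named from these lists, the preset biological variation left 5: Ctbp2, Il18rap, Bcl2, Notch1 and Dtx1.

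**Figure D4:**
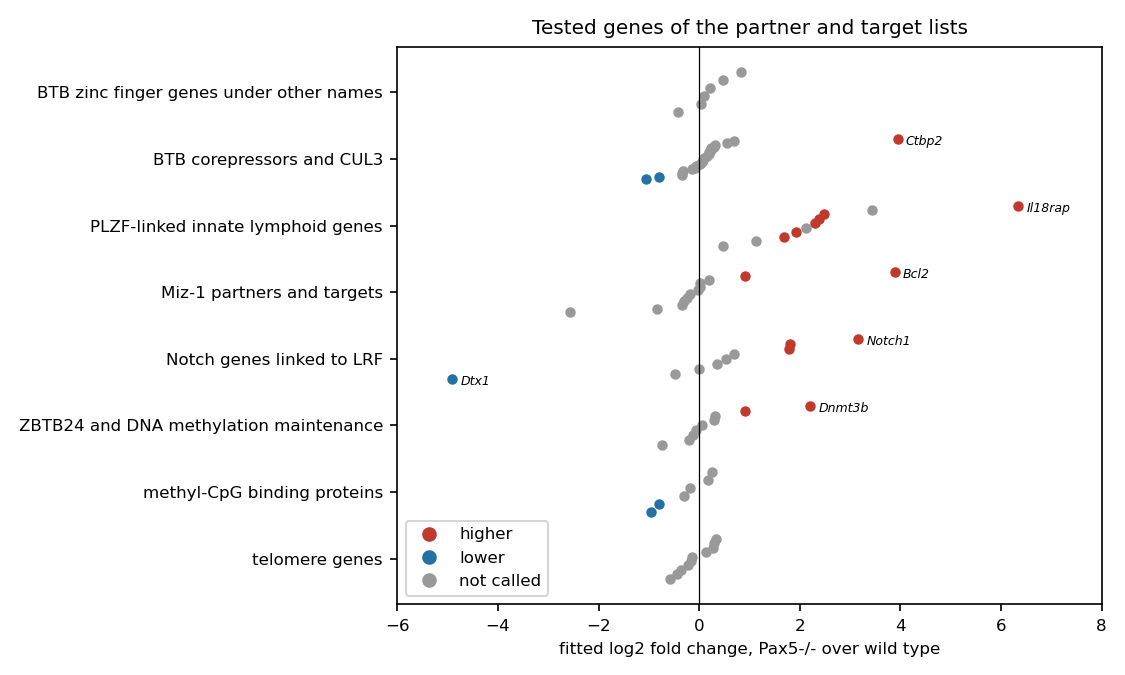
Fitted log2 fold change, Pax5-/- over wild type, of the tested genes in the 8 partner and target lists; each point is 1 gene, coloured by its call, and vertical position within a list only separates the points. The fitted value of Il18rap, which had 2 wild-type counts, depends on the prior count. The telomere genes and the BTB zinc finger genes under other names hold no called gene, while Il18rap, Ctbp2, Bcl2, Notch1 and Dtx1 lie far from 0.

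Markers of other cell types that the cultures could hold also differed in summed level between the samples. The 8 neutrophil markers summed to 3.55 and 7.78 CPM in the mutants and 70.6 CPM in the wild type. They were led by S100a9 (0, 0 and 232 counts) and Ngp (0, 0 and 115 counts). The 8 stromal markers summed to 8.17 and 6.75 CPM against 18.1 CPM. Among them Cxcl12 had 18, 7 and 60 counts, while Pdgfrb went the other way with 15, 18 and 4. The 6 monocyte and macrophage markers summed to 161 and 42.4 CPM against 12.2 CPM. In the mutants most of that was Ly6c2, with 943, 155 and 26 counts, and Adgre1 and Cd14 had at most 2 counts. Lyz2 had 92, 128 and 28 counts, while Csf1r went the other way with 8, 4 and 22. The 8 dendritic cell markers summed to 1033 and 379 CPM against 634 CPM, led by Bst2 (5098, 858 and 1685 counts). The other dendritic cell markers summed to 247 and 253 CPM against 371 CPM. They went opposite ways, with Flt3 at 1049, 1034 and 3 counts, Siglech at 115, 182 and 18, and Irf8 at 425, 479 and 2358. Clec9a was at 0 in all samples and Batf3 at no more than 1 count. The 6 plasma cell markers summed to 2430 and 2724 CPM against 873 CPM through Jchain (1848 and 2068 CPM against 2.96 CPM). The other plasma cell markers summed to 582 and 656 CPM against 870 CPM, with Irf4 at 96, 130 and 2148 counts and Sdc1 at 6, 11 and 193. The 6 erythroid and mast cell markers summed to 20.3 and 24.2 CPM against 0.623 CPM. Nearly all of the mutant sums came from Mcpt8 (80, 91 and 1 counts) and Cpa3 (51, 70 and 0 counts), with Hbb-bs and Hba-a1 at 0 throughout. Their part in the differences of Zbtb4, Zbtb7b, Zbtb38 and the other members was not tested.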

How the data were processed

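The deposited values are gene counts, made by the authors with featureCounts on the mm10 build, per the submitters' processing notes. For the aligner, annotation and strand setting: not given in the sources used here. Each gene has, per the file headers, an Entrez number, a length in bases and a count that is whole and not normalized. The 3 sample files equal the series table. Symbols came from RefSeq GRCm38.p6 by Entrez number, matching 25275 of 27179 genes (93.0%).

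In R 4.3.3, genes were kept by filterByExpr (minimum count 10) and scaled by TMM, and Pax5-/- was compared with wild type in all 3 samples by the quasi-likelihood test of edgeR 4.0.16, with Benjamini-Hochberg adjustment over 11783 genes and a threshold of 0.05. There was 1 residual degree of freedom per gene, with 3.15 prior degrees of freedom, so the spread came from the 2 Pax5-/- samples and was applied to the single wild-type sample too. Their counts differed by more than sampling noise (chi-square of 16.3 per gene). SE was taken as the absolute log2 fold change divided by the root of F, and 95% intervals use the t quantile at the total degrees of freedom. The procedure was also run on simulated counts with planted changes and a single dispersion shared by all genes. Those counts held no effect of sex or depletion and no gene-specific spread, so the run cannot speak to these limits of the data. DESeq2 1.42.0, limma 3.58.1 (voom), other scalings, filters and dispersions were alternatives.

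Members, lists and tests were chosen with earlier results of these data known. Every called member is named; from each partner or target list, the called genes with the 4 largest fold changes and a mean of at least 1 CPM are named, and other genes were named after their values were seen. Some single genes of the lists are not reported here.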

Additional observations from a re-analysis of the deposited data

How the results depend on the processing

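The count of 7 called members (3 higher, 4 lower) was 4 with library size alone (2 lower), 4 with DESeq2 (1 lower, and Zbtb34 among the higher), 4 with limma-voom (1 higher) and 2 with a preset biological variation, coefficient 0.4 (1 higher, 1 lower), which also took the count over all genes from 2130 to 1206. The likelihood ratio test called 5 members higher. RLE scaling, no filter, a minimum of 1 CPM in 2 samples and robust estimation gave 7 or 8 members. DESeq2 was run on the genes kept by the same filter. The cause of these differences was not tested. Of members near 0, Zbtb25 had a log2 fold change of 0.0353 with library size alone and 0.0045 with no filter, and Zbtb48 -0.0021 with the CPM minimum, on the other side of 0 from the values in the report. No called member changed direction under the alternatives run. Leaving out either Pax5-/- sample left 1 sample against 1 with no residual degree of freedom, so no calls could be counted; the called members kept their direction. Leaving out the wild type leaves no comparison. No paired analysis was possible because the groups share only 1 replicate number. Depth limits the members under 10 counts, and 12 members not called had intervals beyond a fold of 2.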

Other observations

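The 2 Pax5-/- samples differed from each other in some members. The ratio of sample 2 to sample 1 in CPM had a median of 1.10 over the 38 tested members, and ran from 0.317 for Zbtb42 to 2.41 for Zbtb16. It was above 1.4 in 8 members: Zbtb16, Zbtb3, Zbtb38, Zbtb10, Zbtb44, Zbtb20, Zbtb12 and Zbtb34. Of the 3 members called higher, Zbtb45 had a ratio of 0.972, whereas Zbtb38 had 1.60. Of the 4 called lower, Zbtb18 and Zbtb2 both had 1.05, Zbtb7b 0.820 and Zbtb4 0.586.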
